A study of Mus musculus with 14 samples.

Results

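The nuclear genes for the protein subunits of respiratory complexes II to V and for cytochrome c were followed in mouse oocytes that carry or lack the mitochondrial unfoldase CLPX. Genes were taken by symbol (Sdha to Sdhd, every Uqcr gene, Cyc1, Cycs, Cox4 to Cox8 genes and every Atp5 gene, pseudogenes left out). This gave 48 of the 18562 genes listed in either count table: 4 of complex II, 9 of complex III, cytochrome c, 17 of complex IV and 17 of complex V. They lie on 19 chromosomes. Of the 48 genes, 47 were listed at both stages, and Cox7b2 was listed at the GV stage alone.

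RNA was measured in 14 SMART-Seq2 libraries, a method that copies full-length cDNA from the poly(A) tail and amplifies it from very little RNA. All libraries came from mice with floxed Clpx, given in the labels as Clpxfl/fl, or as Clpxfl/f for the ovulated WT libraries. The 3 ovulated CKO and 4 GV CKO libraries came from mice that also carried Zp3-Cre, which is driven by the promoter of a zona pellucida gene active in growing oocytes. The labels of the 3 ovulated WT and 4 GV WT libraries name no Cre. GV (germinal vesicle) oocytes rest in prophase of meiosis I with a large nucleus, whereas ovulated ones have gone on with meiosis and been released from the ovary. The labels call the input single-cell material but give neither the age of the mice nor the number of oocytes or animals behind a library, so p-values measure only the spread between these libraries, which may be technical.

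Complex II (succinate dehydrogenase) passes electrons from succinate to ubiquinone, complex III passes them on to cytochrome c, and complex IV uses them to reduce oxygen. Complexes III and IV pump protons, and complex V, the ATP synthase, uses the proton gradient to make ATP. Oocytes depend on this pathway because they use glucose poorly, and they make and store mRNA during growth that is translated or degraded after meiosis resumes, while transcription is silent. The subunits encoded by mitochondrial DNA were not analysed here.

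Library totals were between 25086506 and 28471453 estimated counts. Values per library are CPM (counts divided by library size in units of 1e+06 reads), with library sizes scaled by TMM over the 14 libraries, and are given in replicate order. Clpx checked the labels: it had 0.465, 0.575 and 0.269 CPM in ovulated CKO oocytes against 19.1, 18.5 and 17 CPM in ovulated WT oocytes. In GV CKO oocytes Clpx had 0.676, 0.94, 1.36 and 1.44 CPM, against 58.1, 39.6, 40 and 39.6 CPM in GV WT oocytes. The 14 granulosa and cumulus markers summed to 65.2 to 107 CPM in ovulated CKO, 64.5 to 128 CPM in ovulated WT, 41.5 to 66.1 CPM in GV CKO and 53.3 to 66.9 CPM in GV WT libraries, and 1 or 2 of the 12 that were listed were at 0 in every library of a group. Cyp19a1 made up most of that sum, and in the GV table Amh was at 0.0276 CPM in CKO and 0 CPM in WT. In ovulated oocytes 9 of the 12 had a lower mean in CKO than in WT, and 1 of them was lower in every CKO library. Tnfaip6 averaged 0.445 CPM in ovulated CKO and 4.09 CPM in ovulated WT oocytes, with 12.1 CPM in WT replicate 3, and Fst 0.329 and 1.85 CPM, with 5.37 CPM in that same WT library. The 12 markers of theca, stroma, endothelium and blood summed to 21.5 to 109 CPM in single libraries. Pecam1 made up most of that sum, with 62.2 CPM in ovulated CKO and 68.7 CPM in ovulated WT oocytes. Of the 7 listed in ovulated oocytes, 6 had a lower mean in CKO, but 0 were lower in every CKO library. Dcn averaged 1.83 CPM in CKO and 4.6 CPM in WT, with 9.03 CPM in WT replicate 1. Col1a1 went the other way and was higher in every CKO library (mean 0.207 CPM in CKO and 0 CPM in WT). The 8 oocyte markers summed to 11180 to 13748 CPM in ovulated CKO, 10860 to 15381 CPM in ovulated WT, 22394 to 48683 CPM in GV CKO and 23970 to 38023 CPM in GV WT libraries. The part of other cells in the results below was not tested.

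The subunit mRNAs were abundant in GV oocytes and spread over a wide range. On the deposited FPKM scale, which divides counts by gene length and library size, the median over the listed genes was 86.2 in ovulated CKO, 32.5 in ovulated WT, 179 in GV CKO and 171 in GV WT oocytes. The tables of the stages were normalized separately, so these levels are set side by side only as a description, and very short mRNAs can receive raised FPKM values. In GV CKO and in GV WT oocytes 34 of the 48 genes averaged at least 100 FPKM, led by Atp5e (782 ± 269 in GV CKO and 787 ± 111 in GV WT, SD, n = 4 each) and Uqcrh (748 ± 133 and 621 ± 99.2). Atp5e encodes the epsilon subunit in the central stalk of complex V, and Uqcrh the hinge protein of complex III. The median was 81.3 FPKM in GV CKO and 95.4 FPKM in GV WT oocytes for complex II and 98 and 93.3 FPKM for complex III, below the 249 and 244 FPKM of complex IV and the 208 and 224 FPKM of complex V. Among ovulated oocytes Cox8a, the ubiquitous form of the smallest complex IV subunit, had the highest FPKM, 709 ± 106 in CKO and 1012 ± 643 in WT (SD, n = 3 each). Subunits of 1 complex did not share 1 mRNA level: within complex III the GV WT means ran up to 621 FPKM from 6.42 FPKM for Cyc1, which encodes its haem-bearing cytochrome. The muscle form Cox7a1 was below 1 FPKM in every group, and Cox7b2 averaged 0 FPKM in GV CKO and 0.03 FPKM in GV WT oocytes. Both were too low to test.

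Between the GV and ovulated stages most of these mRNAs fell in both genotypes relative to the other genes, since TMM scaling holds the median of all genes near 0. Ovulated were compared with GV oocytes in 1 fit of the 14 libraries (edgeR's quasi-likelihood test with Benjamini-Hochberg adjustment over 13158 genes, threshold 0.05). In CKO, 30 of the 46 tested genes fell and 1 rose, where 55.7% of all genes were called, 29.9% lower and 25.8% higher. In WT, 39 of the 46 fell and 2 rose, where 63.7% of all genes were called, 34.0% lower and 29.7% higher. The median log2 fold change, ovulated over GV, was -1.62 in CKO against -0.14 for all genes (29 genes called without ovulated CKO replicate 3, where 47.1% of all genes were), and -2.48 in WT against -0.08 for all genes. Scaling to total counts moved the median of all genes by 0.59 in CKO, to 0.45, and by 0.34 in WT, to 0.26, while the median of the subunit genes was -0.97 in CKO and -2.10 in WT. It left 20 genes called lower and 3 higher in CKO (Sdha and Cox8a added), where 17.2% of all genes were lower and 35.6% higher. In WT it left 35 lower and 4 higher (Sdha and Uqcrc2 added), where 26.7% of all genes were lower and 34.0% higher, and no called gene changed sign. The libraries of the 2 stages did not overlap, with ovulated lower, for 31 genes in CKO (31.2% of all genes) and for 38 genes in WT (35.1% of all genes). Of the genes called lower, 29 were so in both genotypes, which is 96.7% of those called lower in CKO and 74.4% of those called lower in WT. The same overlap was not computed over all genes, so it is not read as particular to the subunit genes. Whether the falls differ between genotypes is the interaction test given further down. Less RNA per oocyte and fewer oocytes in a library cannot be told apart, and since the method primes on poly(A), loss of an mRNA and shortening of its tail cannot be told apart either.

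**Figure D1:**
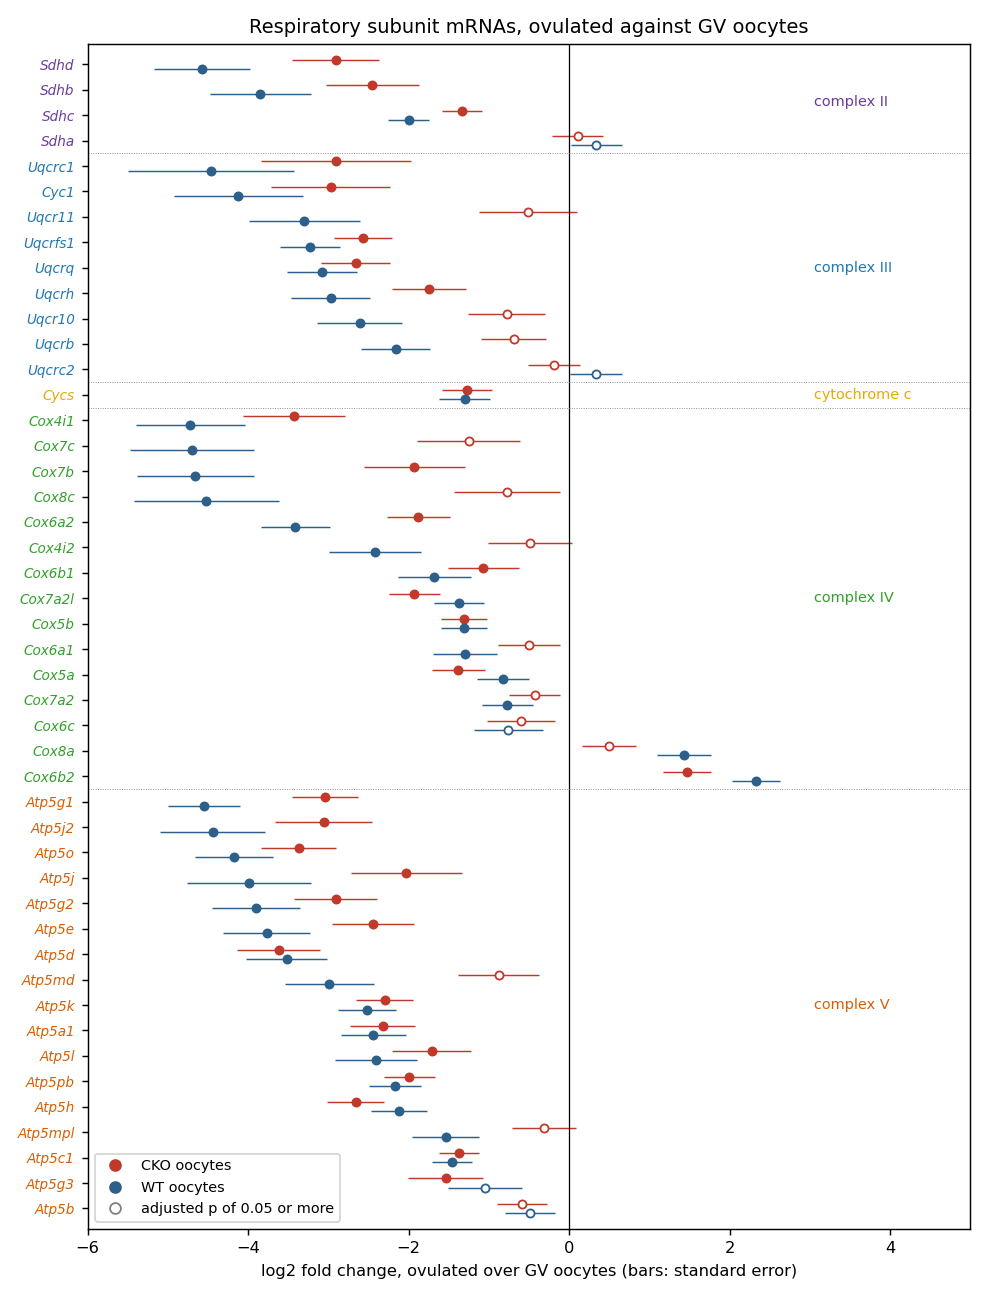
Log2 fold change, ovulated over GV, with its standard error (bars) for each tested subunit gene (down the page), by complex, in CKO and in WT oocytes. Most genes lie below 0 in both genotypes, while Cox6b2 lies above 0 in both, at 1.47 in CKO and 2.33 in WT.

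In complex II the membrane anchors fell and the catalytic subunit did not pass the test. Sdhd, a membrane anchor (gene 66925, chr9:50596340-50603849 in RefSeq, GRCm38.p6, as all gene positions here), had 56.8, 47.1 and 5.85 CPM in ovulated CKO oocytes against 243, 299, 300 and 257 CPM in GV CKO oocytes, and 6.45, 17.2 and 8.21 CPM in ovulated WT oocytes against 219, 291, 231 and 273 CPM in GV WT oocytes. No ovulated library reached the GV range in either genotype, and ovulated CKO replicate 3 was as low as the ovulated WT libraries. The log2 fold change was -2.91 in CKO (SE 0.545, edgeR adjusted p = 0.000325) and -4.57 in WT (SE 0.596, edgeR adjusted p = 9.51e-06). Sdhc, the other anchor (gene 66052, chr1:171129157-171150640), had 61.9, 50.2 and 38.2 CPM in ovulated CKO oocytes against 135, 107, 157 and 109 CPM in GV CKO oocytes, and 22.7, 37.9 and 37.5 CPM in ovulated WT oocytes against 138, 124, 135 and 125 CPM in GV WT oocytes. Its stages did not overlap either, but the changes were smaller, 2.53-fold lower in CKO (edgeR adjusted p = 0.000314) and 3.99-fold lower in WT (edgeR adjusted p = 8.54e-06). Sdha, the flavoprotein that oxidises succinate (gene 66945, chr13:74322255-74350240), had 130, 124 and 188 CPM in ovulated CKO oocytes against 111, 129, 101 and 204 CPM in GV CKO oocytes, and 265, 145 and 237 CPM in ovulated WT oocytes against 182, 186, 95.8 and 219 CPM in GV WT oocytes. Its stages overlapped in both genotypes, and the log2 fold changes of 0.11 in CKO and 0.34 in WT had edgeR adjusted p-values of 0.777 and 0.36. Sdhb, the iron-sulfur subunit, was called lower in both genotypes and stood at -3.85 in WT.

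In complex III, 5 of the 9 genes fell in CKO and 8 of the 9 in WT. The shares of all genes called lower were 29.9% in CKO and 34.0% in WT. Uqcrfs1, the Rieske iron-sulfur protein (gene 66694, chr13:30540312-30545316), had 9.58, 10 and 3.1 CPM in ovulated CKO oocytes against 47.2, 38.5, 37.8 and 56.7 CPM in GV CKO oocytes, and 3.4, 6.65 and 5.41 CPM in ovulated WT oocytes against 46.9, 51.4, 44.6 and 50.7 CPM in GV WT oocytes. Every ovulated library lay below every GV library, with log2 fold changes of -2.57 in CKO (SE 0.365, edgeR adjusted p = 3.57e-05) and -3.23 in WT (SE 0.378, edgeR adjusted p = 3.93e-06). The small subunits showed the same direction. Uqcrq (gene 22272, chr11:53427922-53430831) had 37.8, 16.3 and 8.58 CPM in ovulated CKO oocytes against 162, 120, 139 and 107 CPM in GV CKO oocytes, and 7.72, 18.4 and 10.5 CPM in ovulated WT oocytes against 82, 130, 88.4 and 114 CPM in GV WT oocytes. Uqcrh (gene 66576, chr4:116066965-116075070) had 136, 87.9 and 25 CPM in ovulated CKO oocytes against 316, 311, 222 and 260 CPM in GV CKO oocytes, and 13.5, 39.1 and 26.9 CPM in ovulated WT oocytes against 137, 268, 171 and 254 CPM in GV WT oocytes. In both genes every ovulated library was below every GV library of its genotype. Uqcr11 (gene 66594, chr10:80402997-80406821), 1 of the 4 genes of the complex not called in CKO, had 73.8, 55.6 and 6.46 CPM in ovulated CKO oocytes against 78.1, 52.6, 79 and 47.5 CPM in GV CKO oocytes, and 2.02, 13.4 and 3.38 CPM in ovulated WT oocytes against 60.4, 62.3, 69.5 and 56 CPM in GV WT oocytes. In CKO, replicates 1 and 2 kept the GV level and replicate 3 did not, so the stages overlapped and the change of -0.51 did not pass (edgeR adjusted p = 0.494, above 0 under scaling to total counts), while in WT Uqcr11 fell by 3.30 on the log2 scale (edgeR adjusted p = 0.000559). Cyc1 and the core protein gene Uqcrc1 were called lower in both genotypes, and the small subunits Uqcr10 and Uqcrb in WT but not in CKO. Uqcrc2, the other core protein and the only complex III gene not called in WT, had a log2 fold change of -0.19 in CKO, above 0 under scaling to total counts, and 0.33 in WT.

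Cytochrome c (Cycs, gene 13063), the soluble carrier between complexes III and IV, had 291, 169 and 124 CPM in ovulated CKO oocytes against 550, 501, 398 and 432 CPM in GV CKO oocytes, and 134, 181 and 99.7 CPM in ovulated WT oocytes against 241, 420, 305 and 394 CPM in GV WT oocytes. The stages did not overlap in either genotype, and both falls passed, with log2 fold changes of -1.27 in CKO (edgeR adjusted p = 0.00275) and -1.30 in WT (edgeR adjusted p = 0.00192).

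Complex IV held both the mRNAs that rose and some of the steepest falls. Of its 15 tested genes, 7 fell and 1 rose in CKO, and 12 fell and 2 rose in WT. The shares of all genes were 29.9% lower and 25.8% higher in CKO, and 34.0% lower and 29.7% higher in WT. Cox7c, a small structural subunit (gene 12867, chr13:86044798-86046795), had 83.4, 57.4 and 3.43 CPM in ovulated CKO oocytes against 128, 136, 95.7 and 100 CPM in GV CKO oocytes, and 1.63, 2.95 and 6.15 CPM in ovulated WT oocytes against 64.8, 123, 72 and 112 CPM in GV WT oocytes. In WT every ovulated library was far below the GV libraries (log2 fold change -4.70, edgeR adjusted p = 6.83e-05), which in reads was 46 to 182 counts against 1969 to 2891. In CKO only replicate 3 was as low, and the change of -1.25 did not pass (edgeR adjusted p = 0.106). Cox7b (gene 66142, chrX:106015700-106022450) had 57.1, 34.6 and 2.49 CPM in ovulated CKO oocytes against 125, 144, 107 and 99.9 CPM in GV CKO oocytes, and 1.63, 5.07 and 3.62 CPM in ovulated WT oocytes against 62.1, 111, 74.4 and 102 CPM in GV WT oocytes. The same library stood apart, and Cox7b passed in both genotypes, at -1.93 in CKO (edgeR adjusted p = 0.0157) and -4.66 in WT (edgeR adjusted p = 4.64e-05). Cox6a2, the form of subunit VIa known from heart and skeletal muscle (gene 12862, chr7:128205435-128206366), had 6.26, 2.66 and 1.92 CPM in ovulated CKO oocytes against 15.7, 8.76, 17.7 and 11.2 CPM in GV CKO oocytes, and 0.708, 1.11 and 1.12 CPM in ovulated WT oocytes against 9.73, 11.6, 11.3 and 9.24 CPM in GV WT oocytes. It fell in both genotypes without overlap of the stages. Cox4i1, Cox5a, Cox5b, Cox6b1 and Cox7a2l were called lower in both genotypes, and Cox4i2, Cox6a1, Cox7a2 and Cox8c in WT but not in CKO. Cox8a (gene 12868, chr19:7215158-7217616) had 162, 157 and 236 CPM in ovulated CKO oocytes against 150, 125, 112 and 136 CPM in GV CKO oocytes, and 115, 410 and 295 CPM in ovulated WT oocytes against 69.7, 126, 86.7 and 124 CPM in GV WT oocytes. It rose in WT (log2 fold change 1.43, SE 0.34, edgeR adjusted p = 0.00162) although its lowest ovulated WT library lay within the GV WT range, and in CKO its stages did not overlap while the change of 0.50 did not pass (edgeR adjusted p = 0.22).

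In complex V, 14 of 17 genes fell in CKO and 15 of 17 in WT, and none rose in either. The shares of all genes were 29.9% lower and 25.8% higher in CKO, and 34.0% lower and 29.7% higher in WT. Atp5g1, which encodes the subunit c that forms the rotating membrane ring (gene 11951, chr11:96072793-96075694), had 53.4, 19.1 and 10.9 CPM in ovulated CKO oocytes against 235, 196, 283 and 202 CPM in GV CKO oocytes, and 7.51, 9.97 and 9.19 CPM in ovulated WT oocytes against 194, 217, 213 and 209 CPM in GV WT oocytes. Every ovulated library was lower, with log2 fold changes of -3.04 in CKO (SE 0.412, edgeR adjusted p = 2.48e-05) and -4.55 in WT (SE 0.447, edgeR adjusted p = 1.16e-06). Atp5o, the stalk protein that ties the catalytic head to the membrane part (gene 28080, chr16:91925223-91931630), had 29.8, 12.4 and 6.49 CPM in ovulated CKO oocytes against 194, 156, 167 and 152 CPM in GV CKO oocytes, and 4.36, 12.8 and 6.49 CPM in ovulated WT oocytes against 108, 169, 132 and 164 CPM in GV WT oocytes. It fell by 3.37 on the log2 scale in CKO and by 4.18 in WT, again without overlap. Atp5d, the delta subunit of the central stalk (gene 66043, chr10:80138698-80145828), was low throughout, with 1.64, 1.73 and 0.37 CPM in ovulated CKO oocytes against 19.2, 12.9, 11.2 and 18.6 CPM in GV CKO oocytes, and 0.496, 1.95 and 1.69 CPM in ovulated WT oocytes against 16.1, 16.6, 13.5 and 17.5 CPM in GV WT oocytes. Its ovulated libraries held 11 to 63 counts in CKO and 14 to 67 in WT, so the size of its change is known less well than its direction.

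The other stalk and membrane subunits of complex V that the rule named also fell. Atp5e (gene 67126, chr2:174461075-174464101) had 59.5, 22 and 9.29 CPM in ovulated CKO oocytes against 221, 180, 145 and 112 CPM in GV CKO oocytes, and 5.03, 16 and 11.5 CPM in ovulated WT oocytes against 111, 169, 143 and 169 CPM in GV WT oocytes. Atp5h, part of the peripheral stalk (gene 71679, chr11:115415691-115419919), had 62.6, 30 and 25.3 CPM in ovulated CKO oocytes against 298, 271, 210 and 215 CPM in GV CKO oocytes, and 30.8, 41.9 and 65.6 CPM in ovulated WT oocytes against 150, 230, 173 and 250 CPM in GV WT oocytes. In neither gene did the stages overlap. Atp5k (gene 11958, chr5:108433246-108434399) and Atp5l (gene 27425, chr9:44913248-44920742) encode small membrane subunits that help complex V pair into dimers. Atp5k had 14.8, 6.66 and 6.49 CPM in ovulated CKO oocytes against 58.7, 44.6, 47.6 and 32 CPM in GV CKO oocytes, and 4.75, 7.79 and 7.53 CPM in ovulated WT oocytes against 27.5, 48.1, 33.2 and 45.3 CPM in GV WT oocytes. Atp5l had 95.9, 59 and 24.7 CPM in ovulated CKO oocytes against 231, 220, 148 and 184 CPM in GV CKO oocytes, and 12.1, 50 and 17.9 CPM in ovulated WT oocytes against 80.7, 185, 107 and 193 CPM in GV WT oocytes. Both fell in both genotypes, and their stages did not overlap. Atp5md (gene 66477, chr19:47083471-47090647), a further small membrane subunit, had 25.9, 16.4 and 2.89 CPM in ovulated CKO oocytes against 33, 25.1, 30.7 and 21.8 CPM in GV CKO oocytes, and 1.35, 4.61 and 3.01 CPM in ovulated WT oocytes against 20.1, 28.3, 23 and 24.1 CPM in GV WT oocytes. It fell in WT (log2 fold change -2.99, edgeR adjusted p = 0.00021), whereas in CKO replicate 1 lay within the GV range and the change of -0.88 did not pass (edgeR adjusted p = 0.146). Atp5a1, Atp5c1, Atp5g2, Atp5j, Atp5j2 and Atp5pb, which cover the alpha and gamma subunits, the ring and the stalk, were called lower in both genotypes, Atp5g3 in CKO but not in WT, and Atp5mpl in WT but not in CKO. Atp5b, the catalytic beta subunit, was 1 of 4 genes called in neither genotype together with Sdha, Uqcrc2 and Cox6c, and had log2 fold changes of -0.59 in CKO, above 0 under scaling to total counts, and -0.49 in WT. These 4 are named because they are all of the genes called in neither. For 8 genes, among them Cox7c, Atp5h, Atp5k, Atp5l and Atp5o, another annotated transcript at least 95% identical over 50% or more of the sequence exists and is not used here, so reads could be split between copies and their levels are uncertain.

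**Figure D2:**
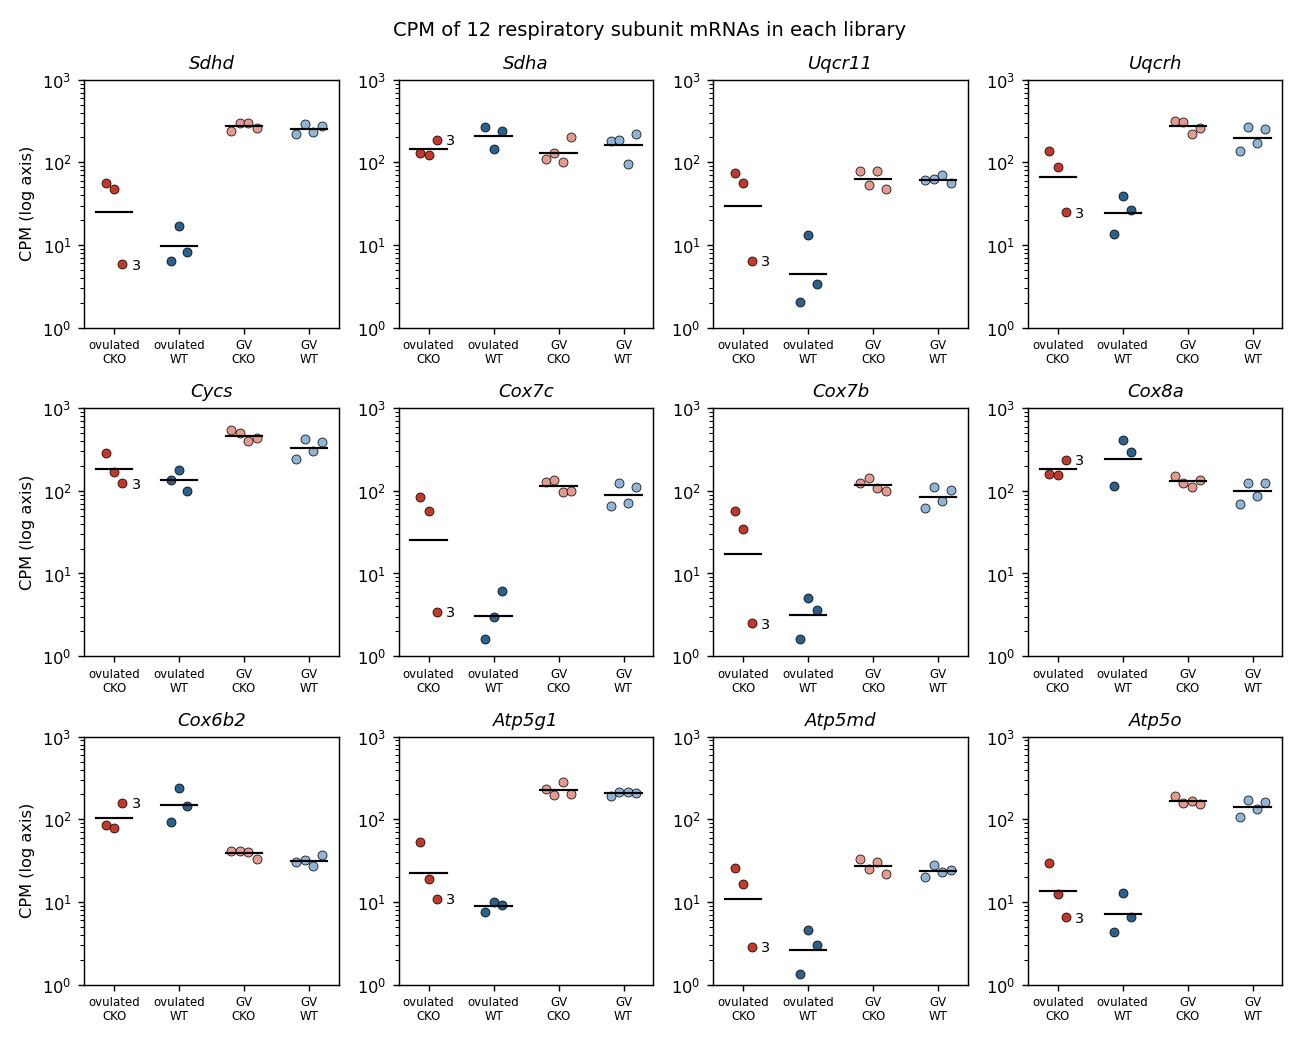
CPM (log axis) of 12 subunit genes in each library of ovulated CKO, ovulated WT, GV CKO and GV WT oocytes, with horizontal lines at the geometric means and the digit 3 beside ovulated CKO replicate 3. Cox7c, Cox7b, Uqcr11 and Atp5md lie nearer the GV libraries in ovulated CKO replicates 1 and 2 and among the ovulated WT libraries in replicate 3, while Cox6b2 is higher after ovulation in both genotypes.

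The 2 forms of complex IV subunit VIb moved in opposite directions. Cox6b1, the form found in most tissues (gene 110323, chr7:30616971-30626114), averaged 169 ± 91 FPKM in ovulated CKO, 91.8 ± 79.8 in ovulated WT, 249 ± 57.9 in GV CKO and 244 ± 34.3 in GV WT oocytes (SD, n = 3, 3, 4 and 4). Cox6b2, known as the testis form (gene 333182, chr7:4751792-4753094), averaged 444 ± 140 FPKM in ovulated CKO, 628 ± 364 in ovulated WT, 117 ± 31.2 in GV CKO and 106 ± 11.9 in GV WT oocytes. Per library, Cox6b2 had 86.1, 79.5 and 159 CPM in ovulated CKO oocytes against 40.9, 41.1, 40.7 and 33.2 CPM in GV CKO oocytes, and 93.1, 239 and 146 CPM in ovulated WT oocytes against 30.4, 32.2, 27.4 and 36.9 CPM in GV WT oocytes. It was the 1 gene that rose in both genotypes without overlap of the stages (27.4% of all genes did so upward in CKO and 27.3% in WT), and it was chosen for values per library after they had been seen. Its log2 fold change was 1.47 in CKO (SE 0.299, edgeR adjusted p = 0.000608) and 2.33 in WT (SE 0.303, edgeR adjusted p = 9.51e-06), whereas Cox6b1 fell by 1.07 in CKO (edgeR adjusted p = 0.0489) and by 1.68 in WT (edgeR adjusted p = 0.00402). Within each library, a ratio that does not depend on library size, Cox6b2 made up 71.6% ± 16.3 of the summed FPKM of both forms in ovulated CKO, 88.6% ± 3.33 in ovulated WT, 31.8% ± 1.7 in GV CKO and 30.4% ± 4.36 in GV WT oocytes. The lowest ovulated share, 60.6%, was above the highest GV share, 36.8%.

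By group means, Cox4i1 stayed above Cox4i2, Cox6a1 above Cox6a2 and Cox7a2 above Cox7a1. Cox4i1, the common form of subunit IV, averaged 65 ± 69.3 FPKM in ovulated CKO, 19.2 ± 10.7 in ovulated WT, 470 ± 101 in GV CKO and 397 ± 43.4 in GV WT oocytes. The form known from lung, Cox4i2, stayed between group means of 0.933 and 4.28 FPKM. Cox6a1 exceeded Cox6a2 in every group, with 289 ± 184 against 10.4 ± 6.77 FPKM in ovulated CKO and 142 ± 62.4 against 2.64 ± 0.834 FPKM in ovulated WT oocytes. Cox7a2 averaged 232 ± 87.7 FPKM in ovulated CKO, 143 ± 87.9 in ovulated WT, 218 ± 75.7 in GV CKO and 193 ± 27 in GV WT oocytes, where its muscle form Cox7a1 stayed below 1 FPKM. Cox7a2l, grouped with them, averaged 109 ± 34.4 FPKM in ovulated CKO, 127 ± 82.6 in ovulated WT, 279 ± 34 in GV CKO and 253 ± 22.6 in GV WT oocytes. Its group means thus lay below those of Cox7a2 in ovulated and above them in GV oocytes. The 3 genes for subunit c encode the same mature protein, and Atp5g1 was the highest of them in each group. Atp5g3 made up 10.3% of their summed FPKM in ovulated CKO, 24.7% in ovulated WT, 4.03% in GV CKO and 3.36% in GV WT oocytes. Cox8c, a testis form, had 28, 26 and 9 counts in ovulated CKO against 3, 0 and 0 counts in ovulated WT libraries, too few to pass the filter of the ovulated fit.

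**Figure D3:**
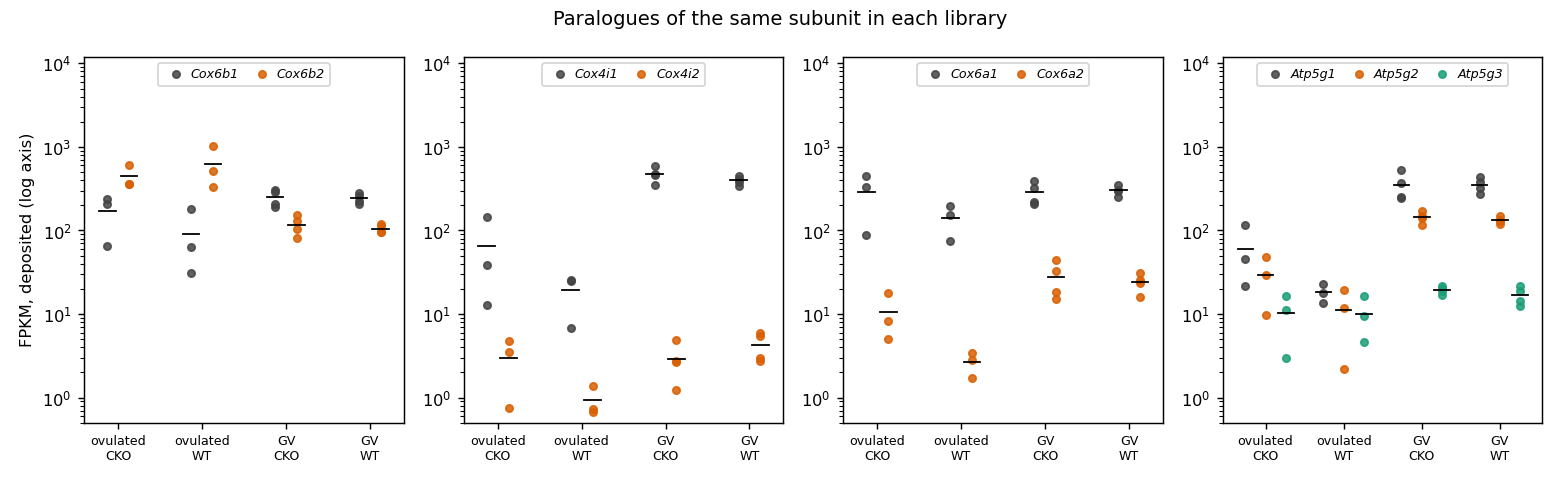
Deposited FPKM (log axis) of genes that encode forms of the same subunit in each library of ovulated CKO, ovulated WT, GV CKO and GV WT oocytes, with horizontal lines at the group means. Cox6b2 lies above Cox6b1 in ovulated and below it in GV oocytes, while Cox4i1 and Cox6a1 lie above Cox4i2 and Cox6a2 in each group.

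The proximal promoters of this pair are shown because its members parted by stage, next to that of Sdhd, which fell steeply. Each is, 5′ to 3′, the 250 bases before the start of the gene on the minus strand in RefSeq (GRCm38.p6, the assembly of mm10). Capitals mark matches to letters bound by known regulators of respiratory genes, searched on both strands: the NRF1 motif (GCGC, any base, then TGCGC), the ETS motif CCGGAAG, the YY1 motif AAGATGGCG and CCAAT.
Sdhd, chr9:50603850-50604099: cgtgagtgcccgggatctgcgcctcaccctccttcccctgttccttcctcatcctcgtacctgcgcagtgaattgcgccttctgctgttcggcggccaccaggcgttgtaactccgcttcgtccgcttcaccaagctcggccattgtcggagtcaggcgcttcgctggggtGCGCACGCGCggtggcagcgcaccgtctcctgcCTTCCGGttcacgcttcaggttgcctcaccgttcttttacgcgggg
Cox6b1, chr7:30626115-30626364: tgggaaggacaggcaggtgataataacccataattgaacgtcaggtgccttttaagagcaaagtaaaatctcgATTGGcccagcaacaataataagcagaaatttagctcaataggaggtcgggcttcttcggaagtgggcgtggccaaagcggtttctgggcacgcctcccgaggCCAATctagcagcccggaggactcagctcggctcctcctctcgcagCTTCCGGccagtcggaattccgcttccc
Cox6b2, chr7:4753095-4753344: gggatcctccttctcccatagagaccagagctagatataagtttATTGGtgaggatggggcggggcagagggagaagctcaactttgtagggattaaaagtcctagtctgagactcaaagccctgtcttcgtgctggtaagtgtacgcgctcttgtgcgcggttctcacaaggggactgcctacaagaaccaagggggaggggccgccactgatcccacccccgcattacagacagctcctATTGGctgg
The Sdhd promoter held an NRF1 match and an ETS match, at 79 and 46 bases before the start, Cox6b1 held an ETS match and CCAAT, and Cox6b2 held CCAAT alone within these letters. Promoters were present for 36 of the 48 genes. In the windows of 300 bases searched, the ETS motif was in 12 of the 36 (33.3%, against 9.12% of 27025 promoters) and the NRF1 motif in 9 (25%, against 4.78%). CCAAT was in 21 (58.3%, against 37.9%) and the YY1 motif in 1 (2.78%, against 1.49%). The 27025 promoters include those of genes not tested in these oocytes, and shares over tested genes alone were not computed. The motif counts are descriptions of letters and not of binding.

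The ends of the mRNAs are shown because stored oocyte mRNAs are known to gain or lose their poly(A) tail through short elements there. The 30 bases, 5′ to 3′, that end with the poly(A) signal (capitals, AATAAA) in GENCODE M21 on GRCm38 are given for the genes that rose, for 2 that fell steeply and for Sdha, which was called in neither genotype.
Cox6b2, rose in both, chr7:4751808-4751837, minus strand: cctccactttgtctttgtgccacaAATAAA
Cox8a, rose in WT, chr19:7215178-7215207, minus strand: cttggtggggtccccctttgtaacAATAAA
Sdhd, fell in both, chr9:50596359-50596388, minus strand: tactctgaaaaaacaaaatttttaAATAAA
Cox7c, fell in WT, chr13:86044831-86044860, minus strand: actcttatactagaaaaaattgtaAATAAA
Sdha, not called, chr13:74322269-74322298, minus strand: actttaaccagcaattgtaagccaAATAAA
None of these genes held a cytoplasmic polyadenylation element (TTTTAT or TTTTAAT, on the mRNA strand) in the last 100 bases of its transcript. The search used 1 annotated transcript per gene and stayed after the coding part, so fewer bases were searched in some genes (59 in Atp5h). The annotated end may not be the measured one. The Atp5g1 transcript had 4715 bases, against 561 bases implied by its counts and FPKM. Within these limits a cytoplasmic polyadenylation element was in 2 of the 46 tested genes (4.35%), against 2425 of 12612 tested genes with a transcript (19.2%). They were Cox5a and Cox6a2, shown with the element in capitals.
Cox5a, chr9:57532330-57532359, plus strand: tgcctggaaatgTTTTATttgaacaaattt
Cox6a2, chr7:128205510-128205539, minus strand: ccagttatttttTTTTATataaggaaaatg
Cox6a2, chr7:128205469-128205498, minus strand: cctgcattttcaTTTTATtttttaaaaatt
Both genes fell in both genotypes, Cox5a by 1.38 on the log2 scale in CKO and by 0.82 in WT. Over all tested genes the median log2 fold change, ovulated over GV, was 0.55 with the element and -0.31 without it in CKO, and 0.68 with it and -0.32 without it in WT. The 44 subunit genes without the element had a median of -1.62 in CKO and -2.48 in WT, so the genes that rose were among those without it.

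Transcript length moved with the stage change and was short in these genes. The length implied by counts and FPKM had a median of 466 bases in 46 of the genes, against 2357 bases over 11087 tested genes. It is not the full mRNA length. Annotated transcripts had a median of 732 bases in the 48 genes and 2944 bases over 12612 tested genes. Length bands here and further down use the implied length. Below 500 bases the 25 subunit genes had a median of -1.25 in CKO and -2.42 in WT, against -1.07 and -1.66 for 379 other genes of that length. Between 500 and 1000 bases the 10 subunit genes had a median of -2.19 in CKO and -3.69 in WT, against -1.27 and -1.47 for 1182 others. Between 1000 and 2000 bases the 8 subunit genes had a median of -2.62 in CKO and -3.16 in WT, against -0.89 and -0.94 for 2995 others. The subunit genes thus lay below other genes of their length in these 3 bands in both genotypes, and the part of length in the change was not tested further.

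The series asks what oocytes lose without CLPX, and its first genotype comparison is in GV oocytes. There the subunit mRNAs of CKO and WT oocytes were not told apart. None of the 46 tested genes was called by edgeR's quasi-likelihood test, where 0.0245% of 12265 genes were called, and none had an unadjusted p under 0.05, against 5.74% of all genes. RLE scaling, scaling to total counts, DESeq2, limma-voom and a fit without the filter also called 0. The median log2 fold change, CKO over WT, was 0.24 against 0.02 for all genes, with 38 genes above 0 and 8 below, where 52.8% of all genes were above 0. No gene had its CKO and WT libraries apart (1.35% of all genes did upward and 2.30% downward). Below 500 bases other genes were shifted alike: the 25 subunit genes had a median of 0.28 against 0.24 for 345 others. Between 500 and 1000 bases the 10 subunit genes had 0.26 against 0.12 for 1124 others. Between 1000 and 2000 bases the 8 subunit genes had 0.10 against -0.02 for 2942 others. By complex the median was -0.05 in complex II, 0.23 in complex III, 0.31 in complex IV and 0.24 in complex V. The smallest p-values were those of Cox7b, at 0.45 (SE 0.204, edgeR adjusted p = 0.834), and Cycs, at 0.46 (SE 0.214, edgeR adjusted p = 0.834). In the per-library values given above, GV WT replicates 1 and 3 were lowest for both genes and replicates 2 and 4 lay near the CKO libraries. Sdha went the other way, at -0.32 (SE 0.285, edgeR adjusted p = 0.87). Under scaling to total counts the median of the subunit genes was 0.12, since under that scaling the median over all genes moved by -0.16, and 5 genes changed sign.

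In ovulated oocytes most subunit mRNAs were higher in CKO than in WT, but no gene passed the test with all 3 CKO libraries. Of 45 tested genes 35 lay above 0 and 10 below, where 50.0% of all genes were above 0, and the median log2 fold change, CKO over WT, was 0.83 against -0.00049 for all genes. None was called by edgeR, where 0.00830% of 12044 genes were called, and 14 had an unadjusted p under 0.05, against 7.76% of all genes. Part of the shift was shared by other short genes: below 500 bases the 24 subunit genes had a median of 1.34 against 0.59 for 326 others, between 500 and 1000 bases the 10 had 0.80 against 0.11 for 1042 others, and between 1000 and 2000 bases the 8 had 0.62 against -0.08 for 2805 others. DESeq2 called 2 subunit genes, where it called 1.16% of 11299 genes with an adjusted p: Atp5md (2.28, DESeq2 adjusted p = 0.0311) and Uqcr10 (2.03, DESeq2 adjusted p = 0.0462). The fit of all 14 libraries called 1, where it called 0.486% of all genes: Cox7c (3.75, edgeR adjusted p = 0.0451). RLE scaling, total counts, limma-voom and the fit without the filter called 0. By complex the median was 0.94 in complex II, 1.13 in complex III, 0.68 in complex IV and 0.99 in complex V, and Cycs stood at 0.46. The libraries of the genotypes did not overlap, with CKO higher, for 4 genes (Sdhc, Cox6a2, Atp5c1 and Atp5g1), where 5.51% of all genes did so, and for none with CKO lower (5.12% of all genes).

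The CKO libraries of ovulated oocytes differed among themselves. In replicate 1, 35 of the 45 genes were above all 3 WT libraries, in replicate 2 there were 26, and in replicate 3 there were 4 with 34 within the WT range. Over all genes 29.8%, 29.1% and 16.4% were above all WT libraries in replicates 1, 2 and 3. The mean log2 CPM of the 47 genes listed at both stages was 5.17, 4.45 and 3.32 in ovulated CKO replicates 1, 2 and 3, against 2.76, 3.84 and 3.66 in ovulated WT replicates 1, 2 and 3. Ovulated CKO replicate 3 thus lay within the WT range for these genes. Summed over the same genes, CPM were 3454, 2519 and 2181 in ovulated CKO against 1955, 2578 and 2523 in ovulated WT libraries. By that sum CKO replicates 2 and 3 both lay within the WT range, and the group means were 2718 and 2352. Mean sums in CKO and WT were 242 and 263 CPM in complex II and 529 and 445 CPM in complex III. They were 970 and 921 CPM in complex IV and 782 and 586 CPM in complex V. In Clpx, given above, CKO replicate 3 was as low as the other CKO libraries. Mt1, a metallothionein gene chosen with earlier results of these data known, had 85.4, 51.1 and 23.3 CPM in ovulated CKO libraries. It had 0.354, 0.262 and 2.33 CPM in ovulated WT libraries, and the difference was not called (edgeR adjusted p = 0.153). The 8 oocyte markers had log2 fold changes, CKO over WT, of -0.47 to 1.68, with 5 above 0 and 3 below and none called. Zp2, a zona pellucida gene, had 331, 443 and 91.5 CPM in ovulated CKO against 95.4, 89.8 and 78.8 CPM in ovulated WT libraries, whereas Oosp1, an oocyte-secreted protein gene, averaged 2892 CPM in ovulated CKO and 4014 CPM in ovulated WT oocytes and Gdf9, an oocyte growth factor gene, 5505 and 6270 CPM. Genes with a count numbered 14381, 14606 and 14050 in ovulated CKO and 13687, 14023 and 14960 in ovulated WT libraries. Their part in the difference between libraries was not tested.

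**Figure D4:**
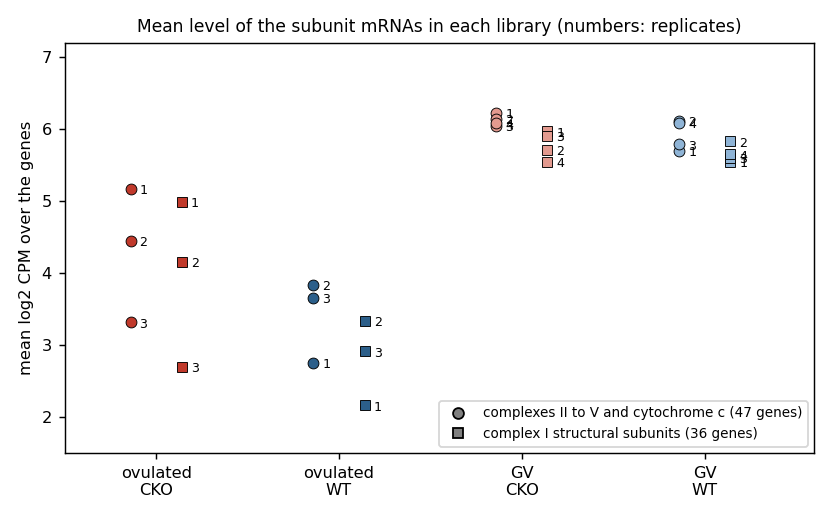
Mean log2 CPM per library of the 47 subunit genes listed at both stages and of complex I subunit genes, for ovulated CKO, ovulated WT, GV CKO and GV WT oocytes, each point a library with its replicate number. Ovulated CKO replicate 1 is highest and WT replicate 1 lowest among ovulated libraries, and CKO replicate 3 lies among the WT libraries.

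Leaving out ovulated CKO replicate 3, which is 1 of the leave-one-out settings, changed the calls. Of 46 tested genes 8 were then called, all higher in CKO, where 1.60% of 12576 genes were called and 1.56% higher. They were the complex II anchor Sdhd, the complex III genes Uqcr10, Uqcr11, Uqcrb and Uqcrh, the complex IV genes Cox7b and Cox7c and the complex V gene Atp5md, named here because they are all of the genes called. Cox7c had a log2 fold change of 4.20 without that library (SE 0.513, edgeR adjusted p = 0.00756), against 3.69 with it (SE 0.892, edgeR adjusted p = 0.524). Cox7b stood at 3.62 without it (edgeR adjusted p = 0.00831) and 3.12 with it, Uqcr11 at 3.26 and 2.79, Atp5md at 2.71 and 2.27, and Sdhd at 2.18 and 1.73. Each of these 5 was larger without the library, and the standard error of Cox7c was smaller. Replicate 3 was the lowest CKO library for all 8 called genes, so its removal had to raise their effects. It was singled out because it lay within the WT range for the subunit genes. These calls are therefore no independent evidence of a genotype effect. The median of the subunit genes was 1.23 without replicate 3, against -0.09 for all genes. In the other direction, the median was 0.29 without CKO replicate 1 and 0.47 without WT replicate 1, with 0 genes called in each. The lowest values were those of Sdha (-0.56), Cox6b2 (-0.56) and Cox8a (-0.57), and none of these passed with the library (Cox6b2 stood at -1.05 without it, edgeR adjusted p = 0.27).

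**Figure D5:**
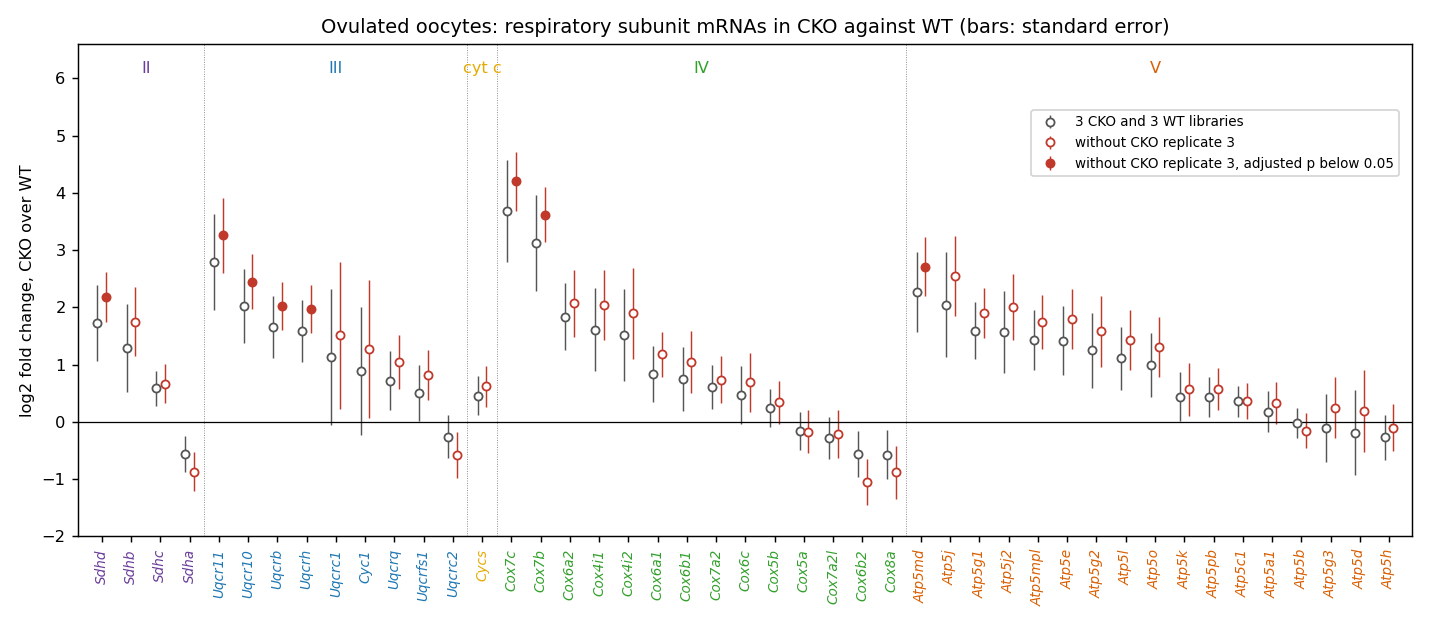
Log2 fold change, CKO over WT, in ovulated oocytes with its standard error (bars) for each tested subunit gene, by complex, with all 3 CKO libraries and without CKO replicate 3. Filled symbols mark the 8 genes called without that library, and no gene is called with it. That library was the lowest CKO library for each of the 8, so leaving it out raises them.

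Whether the CKO effect differs between stages was tested as an interaction in the fit of 14 libraries. None of the 46 genes passed in edgeR's test, where 0.00760% of 13158 genes did, while 12 had an unadjusted p under 0.05, against 9.16% of all genes. DESeq2 called 1, Cox7c (3.41, DESeq2 adjusted p = 0.0292), where it called 0.485% of all genes, and limma-voom, both other scalings and the fit without the filter called 0. The median difference, the CKO effect in ovulated minus that in GV oocytes, was 0.75 against 0.0043 for all genes, with 36 genes above 0, where 50.3% of all genes were. Below 500 bases the 25 subunit genes had a median of 1.23 against 0.43 for 379 other genes. Cox7c stood at 3.44 (SE 0.915, edgeR adjusted p = 0.28), Uqcr11 at 2.80, Cox7b at 2.74 and Atp5md at 2.11. Without ovulated CKO replicate 3, 10 of the 46 passed, where 3.68% of 13521 genes did and 3.62% upward, and Cox7c stood at 3.98 (edgeR adjusted p = 0.000751). The others were Sdhd, Uqcr10, Uqcr11, Uqcrb, Cox7b, Cox8c, Atp5g1, Atp5j and Atp5md, each larger in ovulated oocytes. Replicate 3 was the lowest ovulated CKO library for all 10, so its removal had to raise these differences. The calls carry the limit given above. The median was 0.20 without ovulated CKO replicate 1, 0.49 without ovulated WT replicate 1 and 1.15 without ovulated WT replicate 2.

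Genes that work with these subunits were read from lists of complex I subunits, assembly factors and nuclear regulators. Over all genes 29.9% were called lower and 25.8% higher in CKO between stages, and 34.0% lower and 29.7% higher in WT. Of 36 complex I genes, 23 fell and 1 rose in CKO between stages and 30 fell and 1 rose in WT, with medians of -1.73 and -2.89. Ndufa9 had a log2 fold change of -4.11 in CKO and -6.25 in WT. Of 37 assembly factors of complexes II to V, 21 fell and 2 rose in CKO and 21 fell and 0 rose in WT, with medians of -1.24 and -1.32. Surf1, an assembly factor of complex IV, stood at -2.16 in CKO and -3.47 in WT. Of 12 nuclear regulators, 5 fell and 4 rose in CKO and 6 fell and 2 rose in WT. Their medians were -0.41 in CKO and -0.65 in WT, against -0.14 and -0.08 for all genes. Polrmt, the RNA polymerase of mitochondria, had a log2 fold change of -3.33 in CKO and -5.08 in WT. Ppargc1b, a coactivator of respiratory genes, rose by 1.70 in CKO and by 2.09 in WT.

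Between genotypes those lists held no gene called by edgeR at either stage with all libraries. Over all genes 0.0245% were called in GV and 0.00830% in ovulated oocytes. In ovulated oocytes 16 of 36 complex I genes had an unadjusted p under 0.05, with a median of 1.24, against 7 of 35 assembly factors (median 0.50) and 1 of 10 regulators (median 0.13). Over all genes 7.76% had an unadjusted p under 0.05. Without ovulated CKO replicate 3, 8 complex I genes were called, Ndufa5 among them (3.24, edgeR adjusted p = 0.0131), with 1 assembly factor, Cox17, a copper carrier to complex IV (3.04, edgeR adjusted p = 0.0104), and no regulator. Over all genes 1.60% were called without that library. The mean log2 CPM of complex I genes was 2.70 in that library, against 4.99 and 4.16 in CKO replicates 1 and 2. Its removal thus raises the complex I effects too. In GV oocytes the medians were 0.13, 0.14 and 0.05, and an unadjusted p under 0.05 was reached by 1 complex I gene, no assembly factor and 1 regulator, Polrmt (-0.99, edgeR adjusted p = 0.639). It was reached by 5.74% of all genes.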

How the data were processed

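Estimated (expected) counts and FPKM, deposited by the authors as tables for each stage with 1 column per library, were used for all 14 libraries. Per the submitters' processing notes the genome build was mm10, and the aligner and counter are not given in the sources used here. The deposited expected counts are not scaled to library size and 14.4% to 16.3% of values in a library had a fraction. FPKM as deposited is per gene length and per library size, computed by the authors. Strand is not stated, so reads of overlapping genes cannot be told apart.

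Counts were rounded and compared in R 4.3.3 with edgeR 4.0.16 (TMM, filterByExpr minimum count 10, robust quasi-likelihood test, Benjamini-Hochberg adjustment over all tested genes, threshold 0.05). Genotypes were fitted within each stage, and stages and the interaction over all 14 libraries on genes listed in both tables. Standard errors given for edgeR, also in the figures, are the absolute log2 fold change divided by the square root of the F statistic. CPM use TMM over the 14 libraries, and mean log2 CPM a prior count of 2. DESeq2 1.42.0, limma 3.58.1 (voom), other scalings, no filter, the replicate number as a block and each library left out were the alternatives. The tests were also tested on simulated data. Replicates of a group differed beyond counting error in all 18 pairs (chi-square per degree of freedom 37.4 to 300). Intervals of counting error alone would understate the spread, since PCR copies are not independent molecules. Similar transcripts were searched with BLAST+ 2.17.0. The genes and lists were chosen with earlier results of these data known. Values per library were given, by rule, for up to 6 called genes per comparison with the smallest p-values, and per complex for the gene with the smallest p-value in each genotype comparison and the highest mean FPKM.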

Additional observations from a re-analysis of the deposited data

How the results depend on the processing

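The number of subunit genes called moved with the setting in ovulated CKO against WT oocytes (0 with edgeR within the stage, 2 with DESeq2, 1 with edgeR over the 14 libraries) and in the stage difference of the CKO effect (0 with edgeR, 1 with DESeq2). Leaving out 1 library at a time gave 0 to 0 called genes for GV CKO against WT, 0 to 8 for ovulated CKO against WT, 0 to 10 for the stage difference, 38 to 43 for ovulated against GV WT and 28 to 35 for ovulated against GV CKO. Over all genes 3 to 6, 1 to 201, 0 to 498, 7631 to 8542 and 6362 to 7789 were called in the same order. The medians of the subunit genes ran from 0.18 to 0.32, 0.29 to 1.23, 0.20 to 1.15, -2.92 to -2.23 and -2.13 to -1.32 in that order. The counts of 8 and 10 subunit genes came without ovulated CKO replicate 3, which was the lowest CKO library for each of them. No direction of a median reversed. Over all genes DESeq2 called 41 in GV CKO against WT and 131 in ovulated CKO against WT, where edgeR called 3 and 1, and 64 in the stage difference, where edgeR called 1. The cause of these differences was not tested.

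Nothing in the labels says that a replicate number marks a shared animal or day, and not every same-numbered pair of CKO and WT libraries deviated together, so the numbers were not taken as pairs. In GV oocytes numbers 2, 3 and 4 correlated at r = 0.203, 0.384 and 0.5, each CKO library best with its own number, and number 1 at -0.266. In ovulated oocytes number 2 correlated at 0.354, and numbers 1 and 3 at -0.282 and -0.00502. With the replicate block 0 subunit genes were called in both genotype comparisons and in the stage difference, 39 in the WT and 31 in the CKO stage comparison, with medians of 0.24, 0.81, 0.65, -2.58 and -1.62. Counts over all genes with the block are not given here, so these are not set against other genes.

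With 3 libraries per ovulated group, the standard errors of single genotype effects in ovulated oocytes reached 1.19 (Uqcrc1), and Atp5d, with 11 counts in its lowest ovulated library, has a fold change of poorly known size.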
